A study of Homo sapiens with 16 samples.

Results

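Non-muscle myosin II and the enzymes that set its phosphorylation were examined by RNA-seq in MDA-MB-231, a human line of breast cancer origin with mesenchymal features. The set was taken by gene symbol and holds 10 of the 19468 genes in the deposited values. It consists of the heavy chains MYH9, MYH10 and MYH14, the regulatory light chains MYL9, MYL12A and MYL12B, the essential light chain MYL6, the myosin light chain kinase MYLK, and the myosin phosphatase targeting subunits PPP1R12A and PPP1R12B. The 16 libraries form 4 groups of 4. Ancestral cells were grown either on soft or on stiff extracellular matrix (ECM), and the selected populations were each measured on their own matrix, soft-selected cells on soft and stiff-selected on stiff. All were labelled wild type. Soft ECM was a polyacrylamide gel of 1 kPa and stiff ECM a gel of 308 kPa, each with type I collagen attached, although the names of the stiff columns read 3 kPa. Selected cells had been passaged on their gel for 75 d. The ancestral and the selected libraries carry different prefixes in their labels, and what the prefixes stand for is not stated. Selection and whatever the prefixes mark, such as a batch, cannot be told apart. The soft and stiff groups of each kind share a prefix. Separate cultures are not stated for the replicates, and p-values therefore reflect only the spread between these libraries, which may be technical.

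Non-muscle myosin II is a motor built from a pair of heavy chains, a pair of essential light chains and a pair of regulatory light chains, and its filaments pull on actin to produce contractility. Phosphorylation of the regulatory light chain by myosin light chain kinase, which calcium and calmodulin activate, switches the motor on. Myosin phosphatase, targeted to myosin by PPP1R12A or PPP1R12B, removes the phosphate. RNA levels report the amount of each transcript and not the phosphorylation of the protein.

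The 3 regulatory light chain genes encode nearly the same protein around the sites that the kinase phosphorylates. The starts of their coding sequences are shown to let these sites be compared, from the GENCODE v44 annotation of GRCh38, 84 bases each and all within exon 2 on the plus strand. Capitals mark the codons of the adjacent threonine and serine that the kinase phosphorylates. These are codons 19 and 20 of MYL9 and MYL12B and codons 18 and 19 of MYL12A, counted from the start codon. MYL9 lies at chr20:36544885-36544968, MYL12A at chr18:3253248-3253331 and MYL12B at chr18:3272899-3272982.
MYL9: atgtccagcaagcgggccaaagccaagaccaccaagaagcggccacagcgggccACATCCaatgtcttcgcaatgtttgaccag
MYL12A: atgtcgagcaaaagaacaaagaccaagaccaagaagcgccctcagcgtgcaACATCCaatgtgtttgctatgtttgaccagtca
MYL12B: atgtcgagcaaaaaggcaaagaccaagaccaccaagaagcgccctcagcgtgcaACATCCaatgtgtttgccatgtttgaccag
The 6 capital bases are the same in the 3 genes. Over the whole coding sequence MYL12A and MYL12B were 95.2% identical, with a longest shared run of 77 bases, whereas MYL9 was 78.6% identical to MYL12A and 80.5% to MYL12B. The encoded proteins were 97.7%, 93.0% and 93.0% identical in the same order. How reads that match both MYL12A and MYL12B were counted is not given in the sources used here, and the split between these neighbouring genes is uncertain to that extent, although 0 windows of 150 bases, the read length, were the same in both coding sequences.

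The 10 genes lie on 8 chromosomes of GRCh38. MYH9 spans chr22:36281280-36388010, MYH10 chr17:8474207-8631376 and MYH14 chr19:50188186-50310542. MYLK spans chr3:123610049-123884332, PPP1R12A chr12:79773563-79935460 and PPP1R12B chr1:202348699-202592706. MYL6 spans chr12:56158346-56163496.

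Levels are given as FPKM, the fragments of a gene scaled by its length and by the fragments of the library, and each gene has 1 value per library, so that alternative transcripts such as the short forms of MYLK are not resolved. Reads recovered from the FPKM steps came to between 43475899 and 55473000 per ancestral library and between 34284789 and 44279011 per selected library. The cell line's markers VIM, CD44, KRT18 and AXL were at 305.9 FPKM or more in every library, and of 5 markers listed as low or absent in this line ESR1, PGR and CDH1 were below 1 FPKM in every library, whereas ERBB2 was at 36.3 to 43.1 and EPCAM at 7.04 to 14.1 FPKM. Of 11 muscle markers, 8 were below 1 FPKM in every library, among them the defining DES and MYOCD, and the summed FPKM of the list was 3.96 to 4.87 in ancestral and 6.54 to 9.24 in selected libraries, whose part in the results was not tested. Leukocyte markers summed to under 1 FPKM in every library and endothelial markers to between 0.564 and 1.62 FPKM. Fibroblast markers summed to between 3.39 and 6.35 FPKM, with the defining DCN at 0 to 0.0419 FPKM. Of these 6 fibroblast markers, 4 were below 1 FPKM in every library. The others, PDGFRB and COL1A1, were at or above 1.011 and 1.406 FPKM in every library.

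Transcripts of the light chains and of MYH9 were abundant, those of MYLK, MYH10 and the phosphatase subunits were lower, and only those of MYH14 were scarce. FPKM is scaled by gene length, but the lengths used were not coding lengths for every gene, so that levels can be compared between genes only approximately. In ancestral cells on soft ECM the order of mean FPKM was MYL12B, MYL12A, MYL6, MYH9, MYL9, PPP1R12A, MYLK, MYH10, PPP1R12B and MYH14, and of these neighbours only MYL12A and MYL6 overlapped between libraries. In soft-selected cells on soft ECM MYLK stood after both MYH10 and PPP1R12B in this order, with a library range that did not overlap that of PPP1R12B. In stiff-selected cells on stiff ECM MYLK also stood last of the 9 genes above the filter, with libraries that overlapped those of PPP1R12B.

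**Figure D1:**
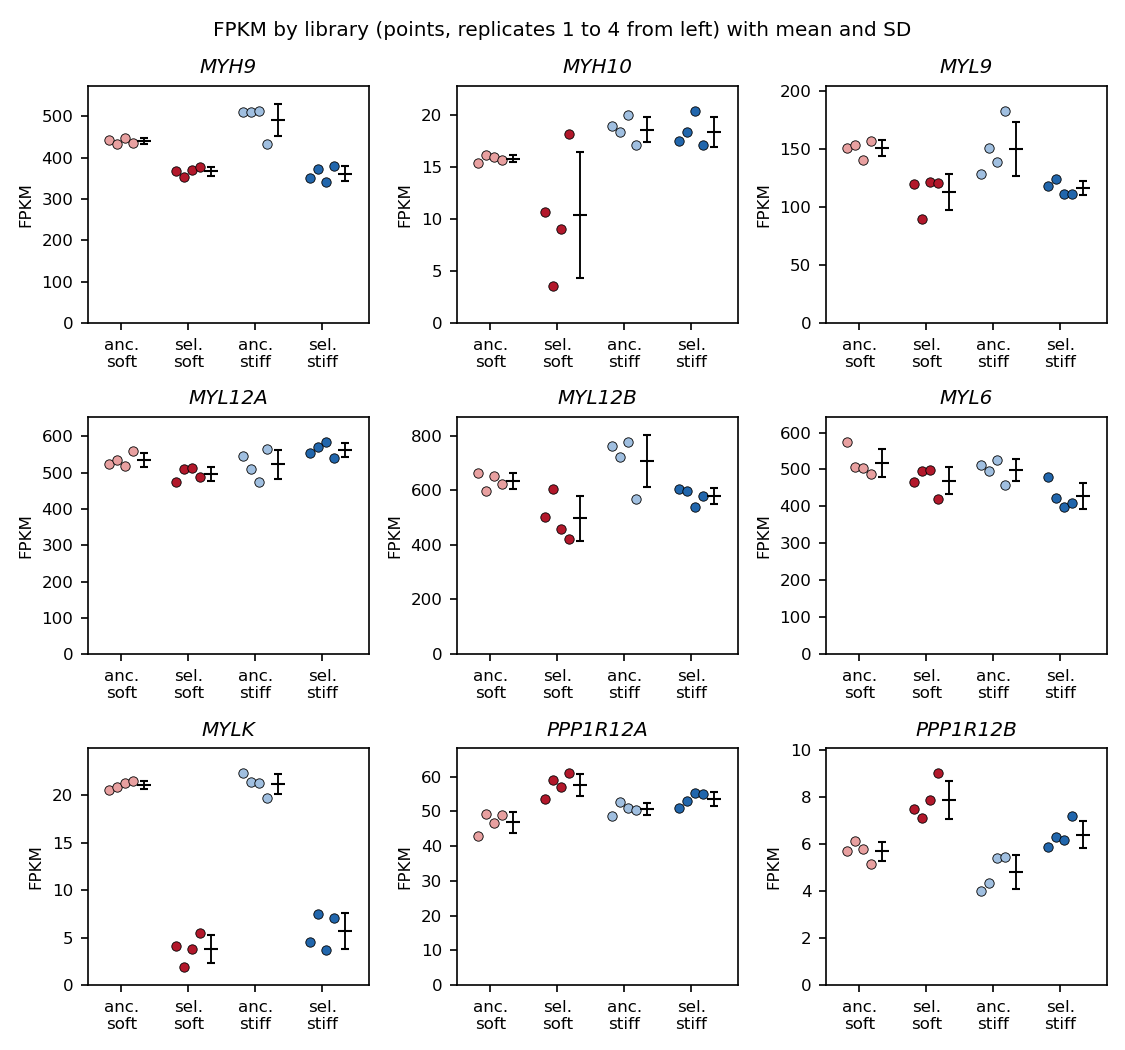
FPKM (vertical axes, from 0) of the 9 genes above the filter in each library, in 4 groups along the horizontal axis; points are libraries and bars are mean and SD (n = 4). MYLK lies at 19.7 FPKM or more in the ancestral and at 7.52 FPKM or less in the selected libraries.

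Of the 10 genes, 9 reached 1 FPKM in at least 4 libraries and were tested by limma together with 12604 genes in all. MYH14, the heavy chain of non-muscle myosin IIC, was not tested in that fit. It had 0 to 10 reads per library, and in 6 of the 16 libraries it is listed at 0, where 3 reads would have given 0.00995 to 0.0143 FPKM. Exact two-sided permutation tests of its 4 comparisons gave p between 0.286 and 0.971, where 0.0286 is the smallest value that 4 against 4 libraries allow, and adjusted p of 0.971 in each.

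Comparison of soft-selected with ancestral cells on soft ECM asks how these genes differ in the population selected on soft ECM. Of the 9 genes tested, 4 were lower (MYLK, MYL9, MYL12B and MYH9) and 2 were higher (PPP1R12A and PPP1R12B) at an adjusted p under 0.01, where 15.4% of all genes were lower and 21.5% higher. Thus 66.7% of the genes were called, beside 36.9% of all genes tested, and their median log2 fold change was -0.26 beside 0.04 over all genes. On stiff ECM, 3 of the 9 were lower in stiff-selected than in ancestral cells (MYLK, MYH9 and MYL9) and PPP1R12B was higher, which is 44.4% beside 29.1% of all genes tested, of which 10.8% were lower and 18.4% higher. The median log2 fold change there was -0.22 beside 0.05 over all genes. The libraries of the groups did not overlap for 6 of the 9 genes on soft ECM, beside 45.6% of all genes, and for 4 of the 9 on stiff ECM, beside 36.8%.

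**Figure D2:**
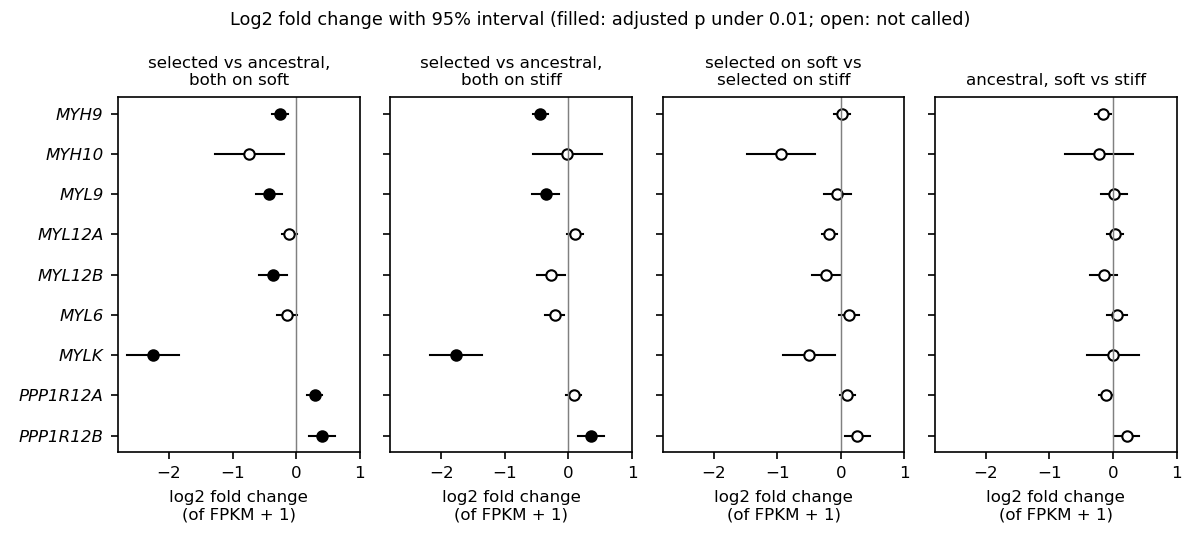
Log2 fold change of FPKM + 1 (horizontal axes) with its 95% interval for 9 genes in 4 comparisons; filled points are called at an adjusted p under 0.01 and open points are not. MYLK has the lowest values, -2.25 on soft and -1.77 on stiff ECM, and no point is filled in the comparisons of soft with stiff ECM.

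MYH9 encodes the heavy chain of non-muscle myosin IIA and made up most of the heavy chain transcript. On soft ECM its FPKM was 443, 433, 448 and 436 in ancestral and 368, 353, 370 and 378 in soft-selected libraries. On stiff ECM it was 510.2, 511, 512 and 433 in ancestral and 351, 373, 341 and 380.4 in stiff-selected libraries. Every selected library thus lay below every ancestral library on the same ECM. Selected cells differed by a log2 fold change of -0.26 (SE 0.06, adjusted p = 0.0015) on soft and -0.44 (SE 0.06, adjusted p = 1.8e-05) on stiff ECM.

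MYH10 encodes the heavy chain of non-muscle myosin IIB and had the highest coefficient of variation of the 9 genes above the filter in soft-selected cells, 58.1%. On soft ECM its FPKM was 15.4, 16.2, 15.97 and 15.7 in ancestral libraries and 10.7, 3.57, 9.06 and 18.2 in soft-selected libraries. The SD was 6.02 in soft-selected cells and 0.337 in the ancestral group, and the groups overlapped because replicate 4 of the soft-selected cells exceeded every ancestral library. The log2 fold change was -0.74 (SE 0.26, 95% interval -1.28 to -0.20) with an adjusted p of 0.023, which is not called. Without that replicate it was -1.05 with an adjusted p of 5.3e-04, and without replicate 2, the lowest library, it was -0.36 with an adjusted p of 0.046. With only the groups compared the adjusted p by limma was 0.083, and with no filter it was 0.071. On stiff ECM MYH10 was at 18.6 ± 1.18 in ancestral and 18.3 ± 1.43 in stiff-selected cells (SD, n = 4), a log2 difference of -0.02 with a 95% interval of -0.56 to 0.52. The interval uses a spread shared with the soft-selected libraries, which are not part of this comparison and varied most.

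As a share of the summed heavy chain FPKM, MYH9 made up 96.5% ± 0.0984 in ancestral cells on soft, 96.3% ± 0.159 in ancestral cells on stiff, 97.3% ± 1.47 in soft-selected and 95.2% ± 0.558 in stiff-selected cells (SD, n = 4). MYH10 made up nearly all of the remainder, from 1.00% in replicate 2 of the soft-selected cells to 5.63% in replicate 3 of the stiff-selected cells. Summed heavy chain FPKM was 455 ± 6.80 and 510.1 ± 40.1 in ancestral cells on soft and stiff ECM, and 378 ± 16.5 and 380 ± 17.6 in the selected cells.

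Among the regulatory light chains, MYL9 was lower in selected cells on both ECMs, MYL12B was lower on soft ECM and MYL12A was not called. MYL9 had an FPKM of 151, 154, 141 and 157 in ancestral and 120, 89.3, 121 and 121 in soft-selected libraries. On stiff ECM it was 128, 151, 139 and 183 in ancestral and 118, 124, 111 and 111 in stiff-selected libraries. All selected libraries lay below all ancestral libraries on the same ECM, with replicate 2 of the soft-selected cells the lowest. Its log2 fold change was -0.43 (SE 0.10, adjusted p = 0.0019) on soft and -0.36 (SE 0.10, adjusted p = 0.0079) on stiff ECM. The call on stiff ECM did not hold without any 1 of the 4 stiff-selected libraries or without replicate 2 or 4 of the ancestral cells on stiff ECM, with adjusted p up to 0.026, nor without replicate 1, 2 or 4 of the ancestral cells on soft ECM, which share the estimate of the spread. It was also lost with no filter (adjusted p = 0.027), with TPM (0.014) and with a prior without trend (0.012).

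MYL12B, the most abundant regulatory light chain in ancestral cells, had an FPKM of 662, 598, 653 and 624 in ancestral and 504, 607, 457 and 421 in soft-selected libraries. Replicate 2 of the soft-selected cells lay above the lowest ancestral library, so that the groups overlapped. The log2 fold change was -0.36 (SE 0.10, adjusted p = 0.0071), and the call was lost when any 1 ancestral library on soft ECM or soft-selected replicate 1, 3 or 4 was left out, with adjusted p up to 0.029. With no filter the adjusted p was 0.021, and with TPM and with only the groups compared it was 0.012. On stiff ECM the FPKM was 762, 722, 776 and 569 in ancestral and 604, 599, 540 and 579 in stiff-selected libraries. The low ancestral library, replicate 4, lay within the range of the selected ones. The log2 fold change of -0.28 (95% interval -0.49 to -0.06) was not called at an adjusted p of 0.038, and was -0.38 with an adjusted p of 0.0033 without that library.

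MYL12A was at 535 ± 19.0 in ancestral and 497 ± 18.1 in soft-selected cells on soft ECM and at 524 ± 39.8 and 562 ± 18.8 in ancestral and stiff-selected cells on stiff ECM (SD, n = 4). Its log2 fold change was -0.11 (95% interval -0.23 to 0.02, adjusted p = 0.13) on soft and 0.11 (95% interval -0.02 to 0.23, adjusted p = 0.15) on stiff ECM. In summed regulatory light chain FPKM, MYL12A took 40.5% ± 1.39 and 38.0% ± 3.66 in ancestral cells on soft and stiff ECM, and 45.0% ± 2.56 and 44.7% ± 1.75 in soft- and stiff-selected cells. The sum itself was 1320 ± 24.5 and 1381 ± 48.8 in ancestral cells and 1106 ± 74.4 and 1259 ± 31.4 in selected cells.

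**Figure D3:**
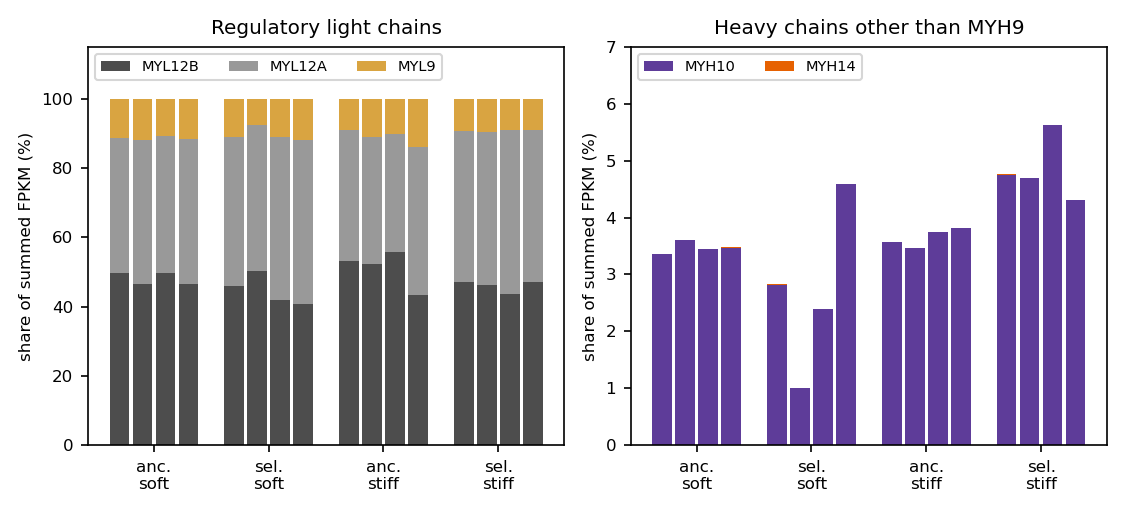
Share of summed FPKM (vertical axes, percent) by library, 4 bars per group; the left panel divides the regulatory light chains into MYL12B, MYL12A and MYL9, and the right panel shows MYH10 and MYH14 as shares of the heavy chains. MYH10 runs from 1.00% to 4.58% among soft-selected libraries and MYH14 is at or below 0.00597% throughout.

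MYL6, the essential light chain, was at 519 ± 37.7 in ancestral and 470 ± 36.5 in soft-selected cells on soft ECM (SD, n = 4), a log2 fold change of -0.14 (95% interval -0.30 to 0.01, adjusted p = 0.12). On stiff ECM it was at 498 ± 29.7 in ancestral and 428 ± 36.2 in stiff-selected cells. The log2 fold change of -0.22 (95% interval -0.37 to -0.06) was not called at an adjusted p of 0.024, and it was called with median-of-ratios scaling (-0.26, adjusted p = 0.0098) and without stiff-selected replicate 1 (-0.28, adjusted p = 0.0069).

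MYLK, whose product phosphorylates the threonine and serine of the codons shown above, had the largest log2 fold change of the 9 genes on both ECMs. On soft ECM its FPKM was 20.6, 20.8, 21.3 and 21.5 in ancestral and 4.12, 1.90, 3.75 and 5.47 in soft-selected libraries. On stiff ECM it was 22.3, 21.4, 21.3 and 19.7 in ancestral and 4.51, 7.52, 3.74 and 7.06 in stiff-selected libraries. The lowest ancestral library thus stood far above the highest selected library. Mean FPKM in selected cells was 0.181 times the ancestral mean on soft and 0.27 times on stiff ECM. On the log2 scale the fold change was -2.25 (SE 0.19, adjusted p = 8.4e-08) on soft and -1.77 (SE 0.19, adjusted p = 2.4e-06) on stiff ECM. These values rest on 483 or more reads per library.

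Of the 2 phosphatase targeting subunits in the set, both were higher in soft-selected cells and PPP1R12B was also higher in stiff-selected cells. PPP1R12A, known as MYPT1, had an FPKM of 42.8, 49.3, 46.6 and 48.9 in ancestral and 53.6, 59.1, 57.0 and 61.0 in soft-selected libraries, without overlap. Its log2 fold change was 0.29 (SE 0.06, adjusted p = 3.0e-04). On stiff ECM it was at 50.7 ± 1.76 in ancestral and 53.6 ± 2.08 in stiff-selected cells (SD, n = 4), a log2 fold change of 0.08 (95% interval -0.04 to 0.20, adjusted p = 0.25).

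PPP1R12B, known as MYPT2, had an FPKM of 5.70, 6.15, 5.79 and 5.16 in ancestral and 7.51, 7.12, 7.88 and 9.01 in soft-selected libraries. On stiff ECM it was 4.02, 4.33, 5.41 and 5.43 in ancestral and 5.88, 6.29, 6.19 and 7.22 in stiff-selected libraries. Selected libraries lay above ancestral ones on each ECM. The log2 fold change was 0.40 (SE 0.09, adjusted p = 0.0018) on soft and 0.36 (SE 0.09, adjusted p = 0.0058) on stiff ECM. The call on stiff ECM was lost without ancestral replicate 1 or 2 or stiff-selected replicate 2, 3 or 4, with adjusted p up to 0.026, and also with no filter (0.012) and with only the groups compared (0.015). The ratio of MYLK FPKM to the summed FPKM of both subunits was 0.401 ± 0.0201 and 0.382 ± 0.0296 in ancestral cells on soft and stiff ECM, and 0.0580 ± 0.0213 and 0.0951 ± 0.0305 in soft- and stiff-selected cells (SD, n = 4).

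Soft-selected cells on soft ECM were compared with stiff-selected cells on stiff ECM, which differ in both population and ECM. By limma 0 of the 9 genes were called, beside 6.43% of all genes tested (3.85% higher and 2.59% lower). At an unadjusted p under 0.05 there were 5, and limma's voom on the recovered reads also called 0. MYH10 had the lowest log2 difference, -0.94 (95% interval -1.48 to -0.40, adjusted p = 0.019), and stiff-selected FPKM was 17.5, 18.4, 20.3 and 17.1. Replicate 4 of the soft-selected cells, at 18.2, lay within that range and the other 3 below it. Without that replicate the difference was -1.25 with an adjusted p of 9.6e-04, and without replicate 2 it was -0.56 with an adjusted p of 0.012. MYL12A, which was lower in all 4 soft-selected than in all 4 stiff-selected libraries, differed by -0.18 (95% interval -0.30 to -0.06, adjusted p = 0.041), where 17.0% of all genes had groups without overlap. MYLK differed by -0.49 (95% interval -0.90 to -0.09, adjusted p = 0.082).

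**Figure D4:**
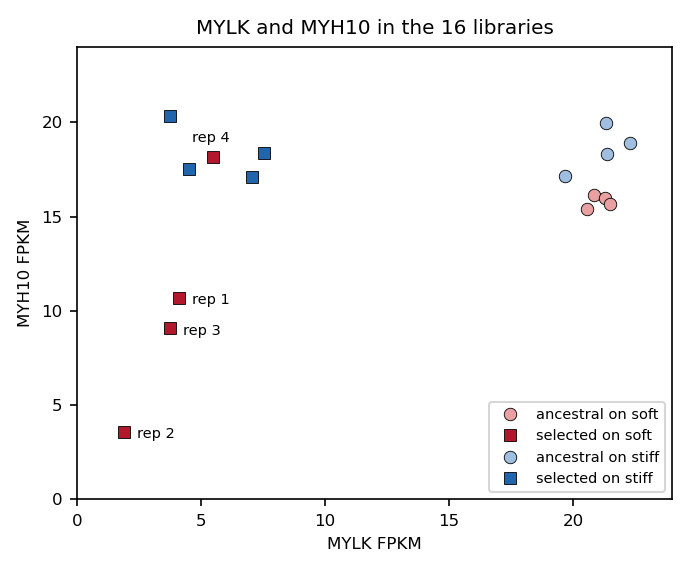
MYLK FPKM (horizontal axis) against MYH10 FPKM (vertical axis) in the 16 libraries, with the soft-selected replicates numbered. The soft-selected libraries run from 1.90 and 3.57 FPKM in replicate 2 to 5.47 and 18.2 FPKM in replicate 4, in the same order for both genes.

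The soft-selected libraries had the same order for MYLK and MYH10, with replicate 2 lowest and replicate 4 highest. Replicate 2 was also lowest of the 4 for MYL9, MYH9 and PPP1R12B and highest for MYL12B. Over 4 libraries this is a description without a test.

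Ancestral cells were compared on soft and stiff ECM to ask how ECM stiffness alone bears on these genes. By limma 0 of the 9 were called, beside 11.4% of all genes tested (7.54% higher and 3.87% lower), with 2 at an unadjusted p under 0.05 and 0 by voom. MYLK was at 21.1 ± 0.424 on soft and 21.2 ± 1.08 on stiff ECM (SD, n = 4), a log2 difference of -0.01 with a 95% interval of -0.41 to 0.40. This interval for MYLK uses a spread shared with the selected libraries and is wider than the ancestral libraries alone would give. The coefficient of variation of MYLK was 38.7% in soft-selected and 32.7% in stiff-selected cells, beside 2.01% and 5.1% in ancestral cells on soft and stiff ECM. MYH9 differed by -0.16 (95% interval -0.28 to -0.03, adjusted p = 0.058). On stiff ECM replicate 4 lay at the level of the soft libraries, and without it MYH9 was called at -0.22 with an adjusted p of 0.0049. MYH10 was lower in all 4 libraries on soft than on stiff ECM, where 31.4% of all genes had groups without overlap, and differed by -0.22 (95% interval -0.76 to 0.32, adjusted p = 0.56). That interval uses a spread shared with the soft-selected libraries, and with only the groups compared the adjusted p was 0.014, still not called. PPP1R12B differed by 0.21 (95% interval 0.02 to 0.41, adjusted p = 0.10).

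Whether selection had a different effect on soft than on stiff ECM was tested as the difference between the 2 log2 fold changes. By limma 0 of the 9 genes were called, beside 0.0% of all genes tested, with 3 at an unadjusted p under 0.05 and 0 by voom. Those 3 were PPP1R12A at 0.21 (95% interval 0.05 to 0.38, adjusted p = 0.25), MYL12A at -0.21 (95% interval -0.39 to -0.04, adjusted p = 0.29) and MYH9 at 0.18 (95% interval 0.01 to 0.36, adjusted p = 0.37). The difference for MYLK was -0.49 (95% interval -1.06 to 0.09, adjusted p = 0.48). A difference between the ECMs in the effect of selection was therefore not shown for any of the 9, PPP1R12A and MYL12B included.

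Other genes that act on or with non-muscle myosin II were listed by role, together with muscle myosin heavy chains and other light chains. Of 66 listed genes 46 were tested, and 13 were higher and 16 lower in soft-selected than in ancestral cells, beside 21.5% higher and 15.4% lower over all genes. In stiff-selected cells 11 were higher and 11 lower, beside 18.4% and 10.8%. Of the genes called higher, 4 on each ECM were muscle myosin heavy chains. MYLK2 and PPP1R14D were also among those called higher on each ECM, and they passed the filter only with the selected libraries counted. The median log2 fold change of the list was 0.02 on soft and -0.03 on stiff ECM, beside 0.04 and 0.05 over all genes.

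Of 13 other kinases of the regulatory light chain, 4 were higher and 4 lower in soft-selected cells, beside 21.5% and 15.4% of all genes. DAPK2, a calmodulin-dependent death-associated kinase, was lower on soft (-1.22, adjusted p = 4.1e-07) and on stiff ECM (-0.82, adjusted p = 4.0e-05), whereas STK17B, of the same family, was higher (0.48, adjusted p = 3.7e-06, and 0.45, adjusted p = 1.5e-05).

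Of 9 other phosphatase subunits and regulators, 1 was higher and 4 lower in soft-selected cells, beside the same shares of all genes. The gene called higher, PPP1R14D, was at 0.562 FPKM in ancestral and 1.47 FPKM in soft-selected cells. It passed the filter only through the soft-selected libraries. PPP1CB, the catalytic subunit of myosin phosphatase, was lower on soft (108 ± 8.19 against 138 ± 6.37 FPKM, log2 fold change -0.36, adjusted p = 3.3e-05) and on stiff ECM (106 ± 1.35 against 140 ± 3.94 FPKM, -0.40, adjusted p = 2.0e-05), opposite in direction to PPP1R12B. NUAK2, a kinase that acts on PPP1R12A, was lower as well (-0.93, adjusted p = 4.1e-07, and -0.52, adjusted p = 2.3e-04). PPP1R12C, of the same family as PPP1R12A and PPP1R12B, is outside the set and the ratio of MYLK to the subunits. It was not called on soft (41.8 ± 2.74 against 41.7 ± 2.43 FPKM, adjusted p = 0.99) or stiff ECM (41.2 ± 1.31 against 42.7 ± 2.77 FPKM, adjusted p = 0.52).

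Of 11 genes of filament assembly and binding, 3 were higher and 6 lower in soft-selected cells, beside 21.5% and 15.4% of all genes, and 1 was higher and 4 lower in stiff-selected cells, beside 18.4% and 10.8%. LIMCH1, which binds and activates non-muscle myosin IIA, fell from 47.8 ± 1.98 to 24.3 ± 2.45 FPKM on soft (log2 fold change -0.95, adjusted p = 5.7e-08) and from 45.3 ± 1.72 to 28.03 ± 3.45 on stiff ECM (-0.68, adjusted p = 4.3e-06). LLGL1 was lower on soft ECM (-0.53, adjusted p = 4.4e-05). The tropomyosin TPM1 was lower on soft (-0.24, adjusted p = 0.0059) and stiff ECM (-0.47, adjusted p = 3.3e-05), whereas TPM2 was higher on both (0.46, adjusted p = 5.8e-04, and 0.33, adjusted p = 0.0086), and TPM3 (0.41, adjusted p = 4.2e-04) and TPM4 (0.24, adjusted p = 0.0026) were higher on soft ECM. S100A4 was lower on soft (446 ± 28.9 against 871 ± 87.5 FPKM, log2 fold change -0.96, adjusted p = 6.2e-05) and on stiff ECM (351 ± 63.6 against 728 ± 180 FPKM, -1.03, adjusted p = 4.9e-05). S100A4, TPM2 and TPM3 were named after their values were seen.

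In selected cells 2 of the 46 were higher on soft than on stiff ECM and 0 lower, beside 3.85% and 2.59% of all genes. They were PPP1R14D, a phosphatase inhibitor (0.62, adjusted p = 9.3e-04), and SVIL, an actin and myosin binding protein (0.32, adjusted p = 0.0014). SVIL was also called higher on soft than on stiff ECM in ancestral cells (0.23, adjusted p = 0.0076 by limma). Against ancestral cells it was lower in selected cells on soft (-0.27, adjusted p = 6.2e-04) and stiff ECM (-0.36, adjusted p = 6.6e-05). PPP1R14D was at 1.47 ± 0.257 FPKM in soft-selected and 0.609 ± 0.143 FPKM in stiff-selected cells. In ancestral cells it was at 0.562 FPKM on soft and 0.249 FPKM on stiff ECM. It passed the filter only through the soft-selected libraries, where it was high, so that its call is not independent of the filter. In ancestral cells 4 were higher and 5 lower on soft ECM, beside 7.54% and 3.87% of all genes, among them CDC42BPG (0.47, adjusted p = 0.0022), PAK2 (-0.21, adjusted p = 0.0044), ANLN, which organizes the contractile ring (-0.33, adjusted p = 5.2e-04), and TPM4 (-0.27, adjusted p = 0.0033).

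For each gene the pattern over the 16 libraries was compared with 10248 genes of a mean FPKM of at least 5, by Pearson's r of log2(FPKM + 1), as a description. The libraries share group and label prefix, which alone can give a high r. MYLK was closest to ADCY9 (r = 0.988) and LIMCH1 (r = 0.986), MYH9 to SAP30 (r = 0.982) and RRBP1 (r = 0.960), and MYH10 to HYOU1 (r = 0.971) and FKBP5 (r = 0.906). MYL9 was closest to CDK16 (r = 0.954) and PLP2 (r = 0.947), MYL12A to ALAS1 (r = 0.857) and COPZ1 (r = 0.848), and MYL6 to SPRYD3 (r = 0.878) and CARHSP1 (r = 0.876). MYL12B was closest to the ribosomal protein genes RPL7A (r = 0.965) and RPS15A (r = 0.957). PPP1R12A was closest to BDP1 (r = 0.954) and CDK17 (r = 0.940), and PPP1R12B to TNRC6A (r = 0.957) and C10orf76 (r = 0.948).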

How the data were processed

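RNA-seq was analysed in 16 libraries of MDA-MB-231 cells. The authors deposited FPKM values for 19468 genes as 1 table, and STAR and hg19 are named, with no version, in the submitters' processing notes. For the counting tool and the gene models, the sources used here give nothing. Libraries were assigned to groups by their labels, and 0 sample columns were left unused. Whole reads, at a tolerance of 0.001, were recovered from the FPKM steps in 100% of genes, giving 34284789 to 55473000 reads per library and gene lengths that were multiples of 3 for 84.3% of genes, so that they are mostly, but not for every gene, coding lengths (MYL6 485 bases, MYL12A 534).

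Tests used limma 3.58.1 in R 4.3.3 with a trended prior on log2(FPKM + 1), so that fold changes of low genes are understated, for 12604 genes that reached 1 FPKM in 4 libraries or more. The 4 group means were estimated in a single model over the 16 libraries, with Benjamini-Hochberg adjustment over all genes and calls at an adjusted p under 0.01. A gene outside the filter was tested by exact permutation. Named genes were all members, up to 2 called genes of each role of the pathway list with the smallest adjusted p, any gene of a role with 3 or fewer genes tested, and the 2 genes most like each member, and the results for 2 roles of the list are not reported here. MYLK2, PPP1R12C, S100A4, TPM2 and TPM3 were also named, after their values were seen. The members and lists were chosen with earlier results of these data known. Alternatives were another pseudocount, filter, scaling, prior, threshold and set of groups, limma's voom on recovered reads, a replicate block, and leaving out each library. Voom with median-of-ratios scaling, and leaving out soft-selected replicate 2 together with stiff-selected replicate 4, were added after seeing the data. The fits and the recovery of reads were tested on simulated data. Sequences and positions came from GENCODE v44 on GRCh38, which is not the build of the files, by gene symbol. Python 3.11.15 was used elsewhere (biopython 1.88, matplotlib 3.10.9, scipy 1.17.1, pandas 2.3.3, numpy 2.4.6).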

Additional observations from a re-analysis of the deposited data

Results flagged for a closer look

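In 3 of 40 groups of 4 libraries, 1 library stood apart from the others by Dixon's test at 95%, which chance gives in about 1 group in 20. MYH9 in ancestral cells on stiff ECM was at 432.8 FPKM in replicate 4 and between 510.2 and 511.9 FPKM in the others. MYL9 in soft-selected cells was at 89.34 FPKM in replicate 2 and between 119.5 and 121.2 FPKM in the others. MYH14 in ancestral cells on stiff ECM was at 0.02959 FPKM in replicate 2, which is 10 reads, and between 0 and 0.003573 FPKM in the others.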

How the results depend on the processing

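MYLK and MYH9 on both ECMs, and MYL9, PPP1R12A and PPP1R12B on soft ECM, kept their direction and their call against ancestral cells in all 27 alternatives. Of 1206 values of single genes under alternatives, 1146 kept direction and side of the threshold, 30 were no longer called, 7 became called and 23 changed sign, all of them in values that were not called. The number of genes called in stiff-selected against ancestral cells was 4, and 2 with no filter, where more genes were tested. Between soft- and stiff-selected cells 2 genes were called at an adjusted p under 0.05. Leaving out each library in turn gave 5 to 6 called genes in soft-selected against ancestral cells, 2 to 4 in stiff-selected against ancestral cells, 0 to 1 in soft-selected against stiff-selected cells, 0 to 1 in ancestral cells on soft against stiff ECM, and 0 for the 2 effects of selection against each other. Leaving out soft-selected replicate 2 together with stiff-selected replicate 4, chosen after seeing the data, gave 6, 3, 0, 0 and 0 in the same order.

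Log2 differences that changed sign were close to 0. MYH10 in stiff-selected against ancestral cells was 0.015 with TPM, -0.067 to 0.015 without each library and 0.011 without both of those replicates. MYL9 in soft-selected against stiff-selected cells ranged from -0.093 to 0.053 without each library and was 0.033 without both, and MYH9 ranged from -0.0032 to 0.049 and was 0.069 without both. In ancestral cells on soft against stiff ECM, MYL9 was -0.0055 with median-of-ratios scaling, -0.0056 with voom and that scaling, and -0.057 to 0.11 without each library, MYL12A ranged from -0.014 to 0.070 and MYLK from -0.039 to 0.018. For the effect of selection on soft minus that on stiff ECM, MYL9 ranged from -0.17 to 0.038 and was 0.019 without both replicates, MYL12B ranged from -0.19 to 0.013 and PPP1R12B from -0.011 to 0.11, and PPP1R12B was 0.14 without both replicates. The cause was not tested.

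Over all genes, median-of-ratios scaling moved the calls in stiff-selected against ancestral cells from 2313 higher and 1356 lower to 1898 and 1686, and those in ancestral cells on soft against stiff ECM from 950 and 488 to 841 and 661. A fit of only the groups compared called 126 genes instead of 811 in soft-selected against stiff-selected cells. Replicate numbers are shared between groups, but 7 of 24 pairs of same-numbered libraries had deviations correlated over 0.1 (range -0.186 to 0.306) and 7 of 16 libraries were closest to their own number, so the numbers were not taken as pairs. With the replicate block 6, 4, 0, 0 and 0 genes were called in the 5 comparisons. The depth of 0 to 10 reads per library limits what can be said of MYH14.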

Other observations

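Group mean FPKM of the tested muscle myosin heavy chain genes ran from 0.9985 (MYH3, ancestral on stiff) to 7.94 (MYH7B, soft-selected). Of 11 muscle myosin heavy chain genes 4 were tested, and all 4, MYH3, MYH7B, MYH11 and MYH15, were higher in selected than in ancestral cells on both ECMs, beside 21.5% of all genes on soft and 18.4% on stiff ECM, with a median log2 fold change of 0.66 on soft and 0.65 on stiff ECM beside 0.04 and 0.05 over all genes. MYH15 rose from 1.59 ± 0.287 to 7.49 ± 1.11 FPKM on soft (log2 fold change 1.71, adjusted p = 5.6e-08) and from 1.86 ± 0.479 to 5.65 ± 1.15 FPKM on stiff ECM (1.22, adjusted p = 4.6e-06; SD, n = 4). MYH3, the embryonic form, rose by 0.62 (adjusted p = 1.5e-05) and 0.55 (adjusted p = 7.2e-05). Of 10 muscle and other light chain genes 2 were tested and 0 were called by limma. MYL5 differed by 0.03 (adjusted p = 0.82) on soft and 0.24 (adjusted p = 0.093) on stiff ECM, and MYL6B by -0.05 (adjusted p = 0.59) and 0.01 (adjusted p = 0.88).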
